A study of Homo sapiens with 4 samples.

Results

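Peaks of the chromatin factor BAF45D that lie at the ends of long non-coding RNA (lncRNA) genes, away from protein-coding genes, are described here in neural stem cells (NSC) and in the embryonic stem cells (ESC) from which they were made. A peak was counted when it overlapped the window of 1 kb on either side of the start or end of a RefSeq lncRNA gene and lay more than 5 kb from the body of every protein-coding gene, on chromosomes 1 to 22. This held for 780 of 28887 peaks in NSC1, 666 of 23942 in NSC2, 102 of 4054 in ESC1 and 339 of 12159 in ESC2. Overlapping peaks of the 4 libraries were merged, and 1201 of 43134 merged regions (2.78%) held at least 1 such peak. The choice used gene positions and the presence of a peak in any library, but neither peak strength nor cell type.

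BAF45D, the product of DPF2, is a subunit of the BAF complex, which moves nucleosomes and opens chromatin. It was mapped by CUT&Tag, in which an antibody brings a transposase to the DNA beside its target, with 100000 cells per assay. The NSC are spinal cord neural stem cells made from H9, an established human embryonic stem cell line, by 10 days of neural induction in N2B27 medium with LDN-193189, SB431542, CHIR-99021, FGF2, FGF8 and DAPT. Maintenance medium (N2B27 with SB-431542, CHIR-99021 and Hh-Ag 1.5) followed, and after 5 subpassages, for which the labels name the induction medium, the cells were moved to N2B27 with FGF2 and EGF. Y-27632, a ROCK inhibitor, was present when the NSC were passaged. The ESC are H9 cells kept on Matrigel in mTeSR1 medium. Each cell type has 2 libraries of 1 cell line, and the labels do not say whether these came from separate cultures, so the spread within a cell type may be technical.

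A lncRNA is a transcript without a protein-coding frame. Some act in the nucleus on neighbouring genes or on splicing, some are precursors of microRNAs or of small nucleolar RNAs, and for most no function is known. Their promoters resemble those of coding genes in being open chromatin. A peak more than 5 kb from any coding gene cannot be a peak at a coding promoter of this annotation, which is why these regions are set apart here.

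Promoters under strong regions of each class are printed to show the DNA at these sites. They were the highest in rank, within each class, for which the region covered at least 150 bases of a promoter in the RefSeq promoter table. They are the 300 bases from 250 before to 50 after a transcript start, from RefSeq (GRCh38.p14), written 5′ to 3′ on the strand of the lncRNA. The first 3 are NSC-only, meaning a peak in NSC1 and NSC2 and in no ESC library, and capitals mark matches to any of 6 short motifs searched on both strands (the TATA box, CCAAT box, GC box, E-box, AP-1 site and SOX site spelled out with their counts further on). LINC02409 is at chr12:97275275-97275574 (minus strand), LOC107984182 at chr10:109411963-109412262 (minus strand) and LINC01132 at chr1:234723792-234724091 (plus strand).
LINC02409: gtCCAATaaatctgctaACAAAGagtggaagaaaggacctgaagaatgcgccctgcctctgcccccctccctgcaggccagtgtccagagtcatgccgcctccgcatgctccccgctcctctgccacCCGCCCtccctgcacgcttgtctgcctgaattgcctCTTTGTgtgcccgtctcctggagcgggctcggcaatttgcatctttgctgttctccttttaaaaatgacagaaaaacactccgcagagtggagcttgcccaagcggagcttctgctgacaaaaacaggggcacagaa
LOC107984182: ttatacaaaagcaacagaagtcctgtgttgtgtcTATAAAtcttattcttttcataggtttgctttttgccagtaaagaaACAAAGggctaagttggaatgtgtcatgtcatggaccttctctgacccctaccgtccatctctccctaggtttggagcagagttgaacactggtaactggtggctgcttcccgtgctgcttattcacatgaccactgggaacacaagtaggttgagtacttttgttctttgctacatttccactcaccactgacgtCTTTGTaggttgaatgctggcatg
LINC01132: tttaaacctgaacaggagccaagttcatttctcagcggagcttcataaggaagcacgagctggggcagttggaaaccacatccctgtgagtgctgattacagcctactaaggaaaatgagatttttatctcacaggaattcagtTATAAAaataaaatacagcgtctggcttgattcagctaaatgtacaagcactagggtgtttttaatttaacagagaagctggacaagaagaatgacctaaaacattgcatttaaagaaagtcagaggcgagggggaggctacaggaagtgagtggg
A pair of further NSC-only promoters is shown because they are the strongest of that class, after those above, that hold the AP-1 site TGACTCA. LINC01392 is at chr7:115231306-115231605 (minus strand) and LOC400940 at chr2:5981728-5982027 (plus strand), and in LOC400940 the letters of TGACTCA and of the first CAGCTG overlap.
LINC01392: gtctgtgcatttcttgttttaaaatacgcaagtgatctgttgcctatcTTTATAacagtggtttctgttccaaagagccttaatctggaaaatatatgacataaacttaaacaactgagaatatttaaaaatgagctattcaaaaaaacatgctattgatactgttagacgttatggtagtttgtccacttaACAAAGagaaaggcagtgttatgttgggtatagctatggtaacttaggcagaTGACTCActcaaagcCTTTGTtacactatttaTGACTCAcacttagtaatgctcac
LOC400940: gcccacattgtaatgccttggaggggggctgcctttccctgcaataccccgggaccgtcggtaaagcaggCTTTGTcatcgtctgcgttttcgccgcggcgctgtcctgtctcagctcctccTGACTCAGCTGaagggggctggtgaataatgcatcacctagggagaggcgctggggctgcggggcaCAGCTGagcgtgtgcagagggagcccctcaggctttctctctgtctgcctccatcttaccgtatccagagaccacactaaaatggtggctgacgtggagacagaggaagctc

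The next 3 promoters contain part or all of a transfer RNA gene, marked in capitals. LINC01556 at chr6:28943534-28943833 (plus strand) and LOC124903281 at chr14:20653172-20653471 (plus strand) had a peak in both ESC libraries and no NSC library, and HCG14 at chr6:28896280-28896579 (plus strand) in all 4. In LINC01556 the capitals are all 82 bases of TRL-AAG2-2, in LOC124903281 they are 21 bases of TRY-GTA5-3 and in HCG14 49 bases of TRL-CAA1-1.
LINC01556: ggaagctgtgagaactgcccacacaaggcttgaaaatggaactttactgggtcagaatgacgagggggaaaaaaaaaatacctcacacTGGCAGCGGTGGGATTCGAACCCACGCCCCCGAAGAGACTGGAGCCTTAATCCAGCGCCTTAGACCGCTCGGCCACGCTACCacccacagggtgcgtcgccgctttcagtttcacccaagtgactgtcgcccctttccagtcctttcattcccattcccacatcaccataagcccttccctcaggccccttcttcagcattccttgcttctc
LOC124903281: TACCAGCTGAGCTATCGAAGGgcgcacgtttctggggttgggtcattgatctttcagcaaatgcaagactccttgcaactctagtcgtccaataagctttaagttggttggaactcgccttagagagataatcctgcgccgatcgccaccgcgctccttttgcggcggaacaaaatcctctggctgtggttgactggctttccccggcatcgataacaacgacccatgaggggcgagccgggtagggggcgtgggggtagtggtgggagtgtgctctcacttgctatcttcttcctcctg
HCG14: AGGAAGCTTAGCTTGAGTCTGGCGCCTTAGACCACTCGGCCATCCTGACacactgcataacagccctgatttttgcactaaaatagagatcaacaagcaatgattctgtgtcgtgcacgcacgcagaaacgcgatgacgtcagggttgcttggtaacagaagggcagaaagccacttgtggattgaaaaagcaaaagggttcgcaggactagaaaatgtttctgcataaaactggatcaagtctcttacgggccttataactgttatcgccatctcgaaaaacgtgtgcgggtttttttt
The last 2 had a peak in all 4 libraries and are rich in GC, with capitals for motifs as above. LOC105373480 is at chr2:740636-740935 (plus strand) and has 70.0% GC, and LOC100288069 is at chr1:778585-778884 (minus strand) and has 66.3% GC.
LOC105373480: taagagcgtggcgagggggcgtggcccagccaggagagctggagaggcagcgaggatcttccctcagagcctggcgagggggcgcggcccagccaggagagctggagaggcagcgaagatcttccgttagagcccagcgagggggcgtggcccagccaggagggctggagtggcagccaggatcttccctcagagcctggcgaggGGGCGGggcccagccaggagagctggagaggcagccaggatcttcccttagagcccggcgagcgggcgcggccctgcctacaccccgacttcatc
LOC100288069: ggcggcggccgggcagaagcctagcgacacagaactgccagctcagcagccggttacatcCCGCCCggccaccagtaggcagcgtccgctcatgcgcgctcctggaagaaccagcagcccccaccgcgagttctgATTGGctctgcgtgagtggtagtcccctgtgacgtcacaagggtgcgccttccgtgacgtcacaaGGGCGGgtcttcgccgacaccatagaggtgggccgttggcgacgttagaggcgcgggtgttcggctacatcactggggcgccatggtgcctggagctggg

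The libraries differed in depth and in list length. The file headers gave 5566407 and 5377831 tags for NSC1 and NSC2, against 20734829 and 18953543 for ESC1 and ESC2, so that the longer lists came from fewer tags. ESC1, the most deeply sequenced, had the shortest list and stood apart from the other libraries. At the ends of 7 coding marker genes of neural progenitors, 6 had a peak in NSC1 and 6 in NSC2, against 0 in ESC1 and 0 in ESC2, PAX6 being without one. At 5 markers of pluripotent cells, 2 and 2 had a peak in the NSC libraries, against 2 and 3 in the ESC libraries, and POU5F1 and NANOG had none in any library. Peak strengths below are the authors' −log10 q values, each measured within 1 list, and they are compared between libraries only as ranks.

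NSC libraries had more peaks at lncRNA ends than ESC libraries, and about the same share of their lists. NSC averaged 723 ± 80.6 peaks, against 220.5 ± 168 for ESC (SD, n = 2 each). The ratio was 3.28, and the lower NSC library had more than the higher ESC library. The exact two-sided permutation test gave p = 0.333, the smallest value that 2 against 2 libraries can give. As a share of all peaks of a library the values were 2.70% in NSC1 (95% Wilson interval 2.52 to 2.89) and 2.78% in NSC2 (2.58 to 3.00), against 2.52% in ESC1 (2.08 to 3.04) and 2.79% in ESC2 (2.51 to 3.10). These shares overlapped between the cell types, with means of 2.74% ± 0.0577 for NSC and 2.65% ± 0.192 for ESC (SD, n = 2 each, exact permutation p = 1). The ratio of numbers was 7.09 without ESC2 and 2.13 without ESC1. When each list was held to its 4054 strongest peaks, the means were 113 in NSC and 111.5 in ESC, a ratio of 1.01, so the numbers were close once the lists were of equal length.

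**Figure D1:**
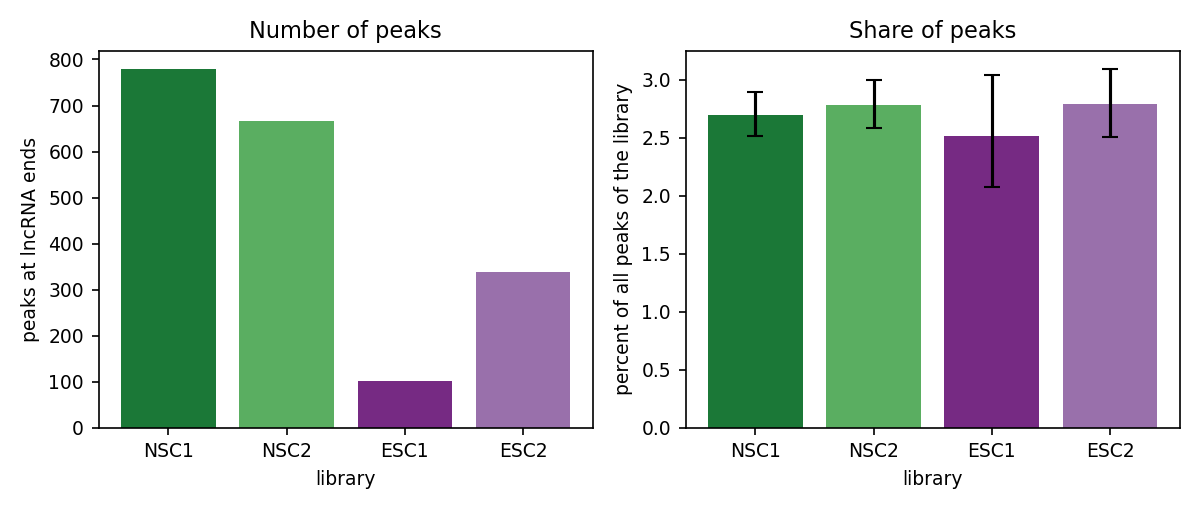
Left, the number of BAF45D peaks at lncRNA ends away from coding genes in each library. Right, the same as a percent of all peaks of the library, with 95% Wilson intervals for counting error. The NSC libraries had 780 and 666 such peaks and the ESC libraries 102 and 339, while the share lay between 2.52% and 2.79% in all 4.

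Of all peaks that lay more than 5 kb from coding genes, lncRNA ends took 7.95% in NSC1 and 8.24% in NSC2, against 6.06% in ESC1 and 8.32% in ESC2. Within its own list, the median peak at a lncRNA end ranked at percentile 52.5 in NSC1, 51.7 in NSC2, 56.6 in ESC1 and 54.0 in ESC2, where 100 is the strongest. The median peak elsewhere away from coding genes ranked at 45.8 and 45.6 in the NSC lists, and at 49.2 and 41.3 in the ESC lists. The median peak at a coding gene end ranked at 61.6 and 60.5 in the NSC lists, and at 61.7 and 68.8 in the ESC lists. Peaks at lncRNA ends thus had a median rank between these other kinds of place in each of the 4 lists. Peaks within 5 kb of coding genes but not at their ends were not ranked in this way. The members nearest to a coding gene lay 5148, 5016, 5616 and 5054 bp away in NSC1, NSC2, ESC1 and ESC2. The last peaks left out lay at 4849, 4905, 4763 and 4867 bp.

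The sharing of these peaks between libraries was near that of the whole lists. NSC1 and NSC2 shared 474 of the 666 in the shorter list (71.2%, 95% Wilson interval 67.6 to 74.5), beside 74.6% over all peaks, and this matched 60.3% of the longer list. ESC1 and ESC2 shared 69 of 102 (67.6%, 58.1 to 75.9), beside 59.9% over all peaks, and this matched 20.1% of the longer list. That last share is limited by list length, since ESC1 had 102 such peaks and ESC2 339. The whole lists differed likewise, with 4054 peaks in ESC1 and 12159 in ESC2. The pairs of an NSC and an ESC library shared 32.2% to 43.1% of the shorter list, beside 36.5% to 39.7% over all peaks.

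Among the 1201 regions, 384 were NSC-only, with a peak in both NSC libraries and no ESC library. This was 32.0% of them (95% Wilson interval 29.4 to 34.7), beside 30.7% of all 43134 merged regions. ESC-only regions, with a peak in both ESC libraries and no NSC library, numbered 26, or 2.16% (1.48 to 3.15) beside 1.66% of all regions. Regions with a peak in all 4 libraries numbered 39, or 3.25% (2.38 to 4.41) beside 3.3% of all. The 3 shares lay near those of all regions, so the split of lncRNA ends between cell types was close to that of the whole set of regions. The other 752 regions were 62.6% of those at lncRNA ends, beside 64.3% for such patterns among all regions. Most of the 752 had a peak in 1 library, namely 277 in NSC1, 167 in NSC2, 30 in ESC1 and 182 in ESC2. A further 63 had one in both NSC libraries and ESC2. At equal list length there were 56 NSC-only and 31 ESC-only regions, and 18 in all 4 libraries. Leaving out ESC1 gave 208 ESC-only regions (17.8% beside 16.9% of all regions) and 102 in all remaining libraries (8.71% beside 9.63%). Leaving out ESC2 gave 54 ESC-only regions (5.30% beside 6.23%), and leaving out NSC2 gave 655 that were NSC-only (63.7% beside 63.9%).

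**Figure D2:**
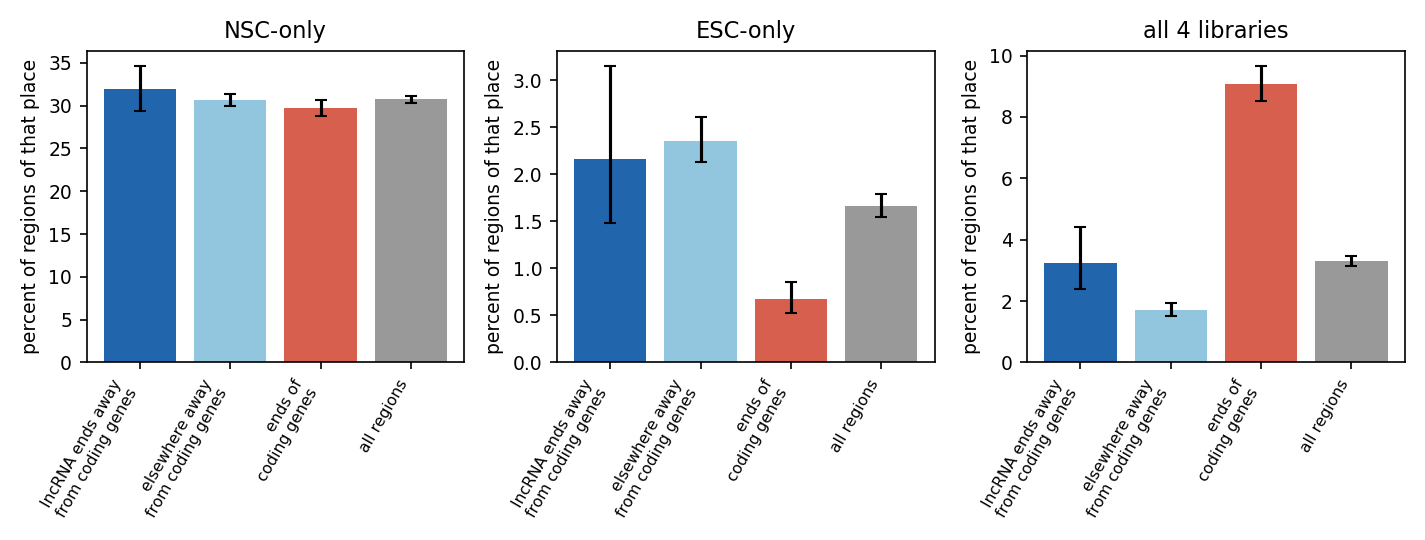
Percent of merged regions that were NSC-only, ESC-only or present in all 4 libraries, at lncRNA ends away from coding genes, elsewhere more than 5 kb from coding genes, at coding gene ends and over all regions. Bars carry 95% Wilson intervals for counting error, and the 3 panels have different scales. At lncRNA ends 3.25% of regions were in all 4 libraries, against 1.72% elsewhere away from coding genes and 9.09% at coding gene ends.

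The share of regions common to NSC1 and NSC2 that recurred in ESC was, at lncRNA ends, between the shares elsewhere away from coding genes and at coding gene ends. Of 487 such regions at lncRNA ends, 103 recurred in ESC (21.1%, 95% Wilson interval 17.8 to 24.995), 102 of them in ESC2 and 40 in ESC1. Elsewhere away from coding genes it was 452 of 5029 (8.99%, 8.23 to 9.81), and at coding gene ends 2763 of 5651 (48.9%, 47.6 to 50.2). Regions were also put in 4 bins of NSC strength, and the order was the same in each. In the strongest bin 35.5% of lncRNA end regions had an ESC peak (27.6 to 44.4), against 18.8% (16.6 to 21.2) elsewhere away from coding genes and 78.6% (76.7 to 80.4) at coding gene ends. In the weakest bin the values were 10.8% (6.44 to 17.7), 4.96% (3.93 to 6.24) and 22.1% (19.8 to 24.7). Intervals count regions of the same 4 libraries, which are not replicates, so these shares describe these libraries.

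Regions are named in the order of their mean rank over the libraries in which they had a peak. The first NSC-only region lay at the start of LINC02409 (hg38 chromosome 12, 97274924 to 97275942), with −log10 q of 44.2 in NSC1 and 35.2 in NSC2 and no peak in either ESC library. The nearest coding gene, 321 kb away, was NEDD1, which anchors microtubule nucleation at the centrosome. The next was at LOC105371825 (chromosome 17, 50893212 to 50894058, 34.4 in NSC1 and 48.8 in NSC2), 25.2 kb from TOB1, a gene that restrains proliferation. CDH2-AS1, an antisense transcript of the N-cadherin gene CDH2, had a peak at its start 9.64 kb from CDH2 (chromosome 18, 27922075 to 27923238, 34.3 and 30.3). N-cadherin is the cell adhesion molecule of neural epithelium. LOC107984182 (chromosome 10, 109411898 to 109412755) had 48.4 and 25.3, and lay 452 kb from the nearest coding gene, XPNPEP1. LINC01132 (chromosome 1, 234723665 to 234724819) had 35.0 and 23.6, 113 kb from IRF2BP2, a transcriptional corepressor. The other 3 of the top 8 were at LOC105375852, with PENK as its nearest coding gene, at LOC105375905 and at LOC105371874, with −log10 q between 24.2 and 37.9. Each of these 8 regions ranked above percentile 96 in both NSC lists.

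**Figure D3:**
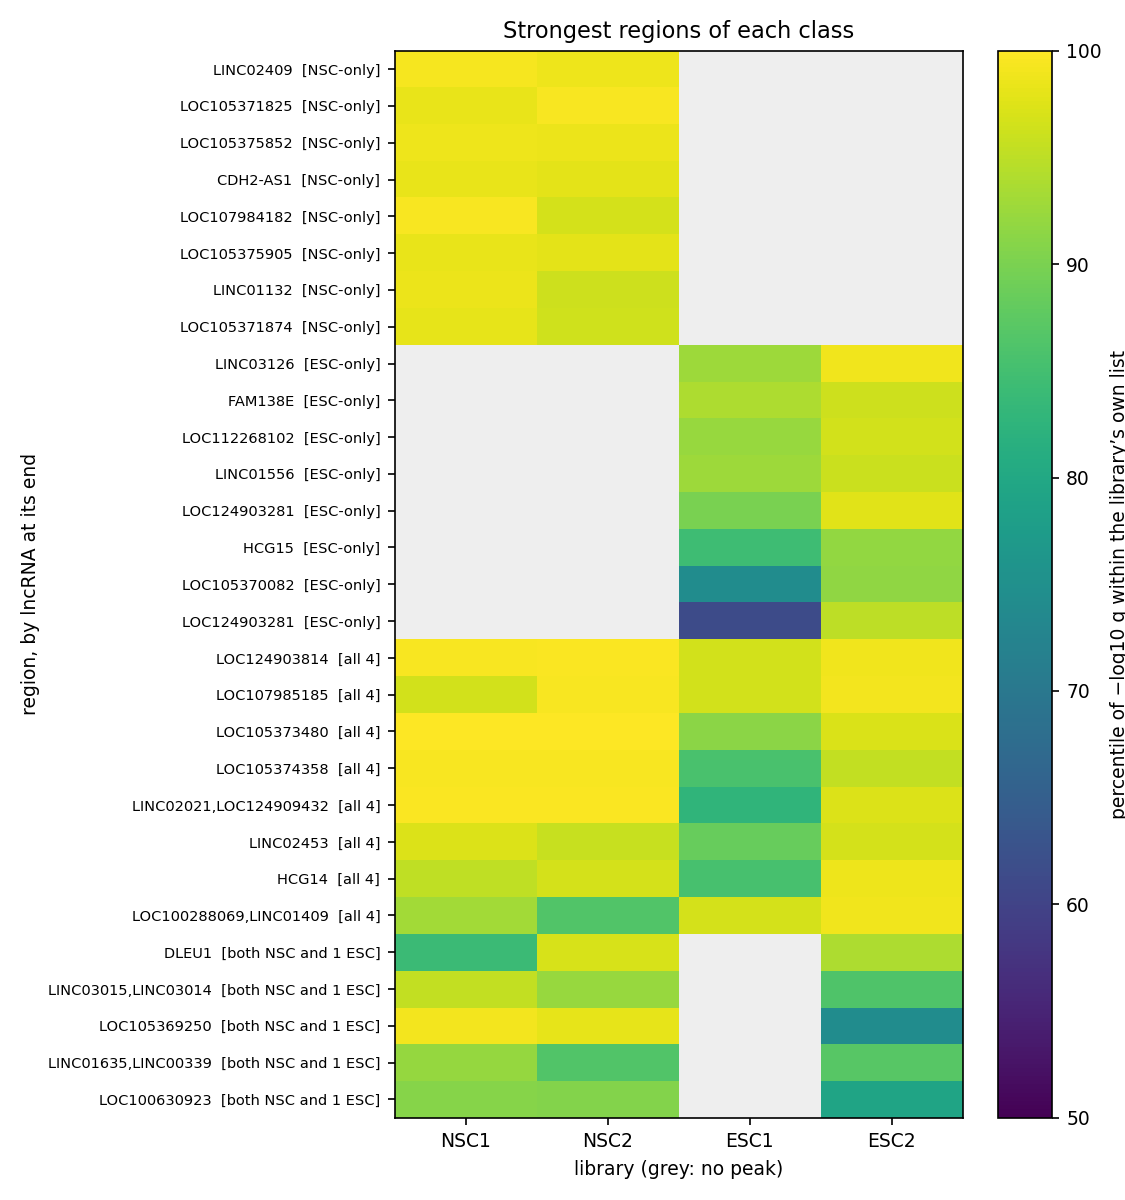
Rank of the strongest regions at lncRNA ends within each library, as the percentile of −log10 q in that library's own list (100 is strongest, grey means no peak). Rows are the 8 regions of highest mean rank that were NSC-only, ESC-only or in all 4 libraries, and the 5 highest in both NSC libraries and 1 ESC library. Among the 8 regions in all 4 libraries, LOC105373480 had the highest rank in NSC1 and NSC2, and LOC105374358, LINC02021, LINC02453 and HCG14 ranked lowest in ESC1.

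Some lncRNA genes had several peaks in NSC. LINC01013 on chromosome 6 had 3 in NSC1 and 3 in NSC2 and none in ESC, in 3 regions. A pair of these lay at its 5′ end and the last, at 132168282 to 132169297, at its 3′ end, with −log10 q of 16.7 and 9.51 in NSC1 and NSC2. LINC01508 on chromosome 9 also had 3 and 3 in NSC1 and NSC2 and 0 in ESC1 and ESC2, at both of its ends. LINC03042, LOC105376372 and LOC124904479 had 5 NSC peaks each, over both NSC libraries, and no ESC peak. LINC03042 lies on chromosome 8, with FGFR1, an FGF receptor gene, as its nearest coding neighbour, and LOC124904479 on chromosome 1, nearest to the nuclear receptor gene NR5A2. DLEU1 had 3 and 2 NSC peaks, against 0 in ESC1 and 2 in ESC2.

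Several ESC-only regions at lncRNA ends lay over transfer RNA genes, which RNA polymerase III transcribes. None of the 384 NSC-only regions overlapped a tRNA gene, a count of 0 that allows up to 0.781%, against 6 of the 26 ESC-only regions (23.1%). Of the 39 regions in all 4 libraries, 5 did (12.8%). Among all merged regions the shares were 9 of 13247 NSC-only (0.0679%), against 52 of 716 ESC-only (7.26%), and 73 of 1422 in all 4 libraries (5.13%). Elsewhere away from coding genes they were 3 of 4577 NSC-only (0.0655%), against 37 of 352 ESC-only (10.5%). The highest-ranking ESC-only region lay at LINC03126 over the glutamate tRNA gene TRE-TTC3-1 (chromosome 1, 16872514 to 16873020), with −log10 q of 18.8 in ESC1 and 56.5 in ESC2. LINC01556 (chromosome 6, 28943568 to 28943896, over TRL-AAG2-2) had 18.7 and 25.6, and HCG15 (chromosome 6, 28988604 to 28989273, over TRL-AAG3-1) had 9.91 and 17.0, both leucine tRNA genes. LOC124903281 on chromosome 14 had an ESC-only region at each end, over the tyrosine tRNA genes TRY-GTA5-3 (13.8 and 34.4) and TRY-GTA5-4 (4.76 and 22.5). In the LINC01556 and LOC124903281 promoters printed above, the tRNA gene ends upstream of the lncRNA start.

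Counted by library, 7 of the 780 NSC1 peaks at lncRNA ends lay over a tRNA gene and 9 of the 666 NSC2 peaks, against 11 of 102 in ESC1 and 22 of 339 in ESC2. As shares these were 0.897% in NSC1 (95% Wilson interval 0.435 to 1.84) and 1.35% in NSC2 (0.713 to 2.55), against 10.8% in ESC1 (6.13 to 18.3) and 6.49% in ESC2 (4.32 to 9.63). The cell types did not overlap, with means of 1.12% ± 0.321 for NSC and 8.64% ± 3.04 for ESC (SD, n = 2 each, exact permutation p = 0.333, the smallest this design can give). The same held over all peaks, of which 0.408% and 0.518% lay over tRNA genes in NSC1 and NSC2, against 3.48% and 1.80% in ESC1 and ESC2. At equal list length the mean shares at lncRNA ends were 3.54% in NSC and 13.2% in ESC, and at −log10 q of at least 5 they were 1.53% and 17.5%. Of 40 tRNA genes within reach of the rule, 25 lay in the 24 regions that overlap one, and 22 of these regions had a peak in ESC2 and 10 in an NSC library. They are not independent, since 16 of the 24 lie on chromosome 6, where tRNA genes are clustered. Depth also differs between the cell types, and its part in these shares was not tested.

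**Figure D4:**
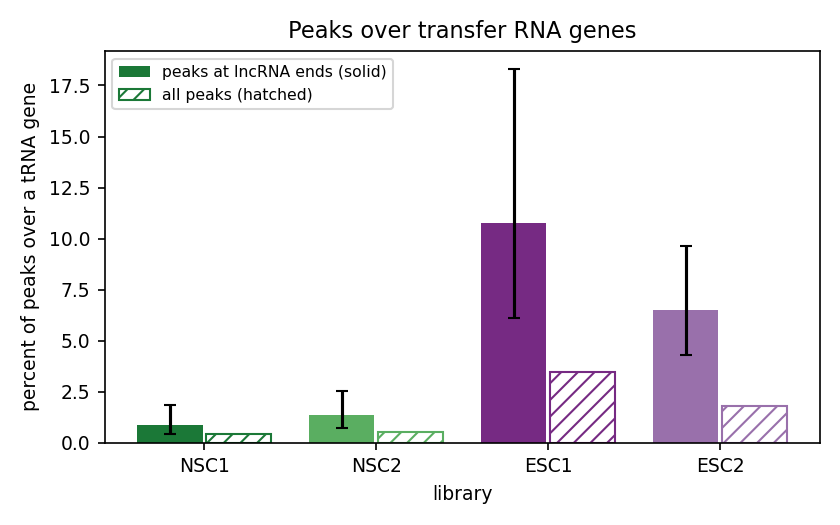
Percent of peaks that overlap a transfer RNA gene in each library, for peaks at lncRNA ends away from coding genes (solid, with 95% Wilson intervals for counting error) and for all peaks (hatched). At lncRNA ends the NSC libraries had 0.897% and 1.35%, and the ESC libraries 10.8% and 6.49%.

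The other ESC-only regions of high rank included FAM138E near the end of chromosome 15 (101953945 to 101954479, −log10 q 21.99 in ESC1 and 26.1 in ESC2). FAM138E belongs to a family of near-identical copies close to chromosome ends. LOC112268102 (18.1 and 27.8) and LOC105370082 (6.53 and 16.7) lay on chromosome 12, both at 3′ ends. With regions over tRNA genes left out, a setting chosen after the data were seen, there were 384 NSC-only regions and 20 ESC-only regions. These were 32.6% and 1.70% of the lncRNA end regions that were left, beside 30.9% and 1.55% of all regions left.

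Regions present in all 4 libraries included several over members of duplicated gene families. Over all merged regions, those in all 4 libraries had a median width of 757.5 bp, against 471 bp (NSC-only) and 419 bp (ESC-only). A merged region spans all of its peaks, and the part of this in the widths was not tested. Those at lncRNA ends in all 4 libraries had a median width of 729 bp, against 479.5 bp for NSC-only and 481 bp for ESC-only. The highest in rank was at LOC124903814 (chromosome 1, 180653 to 181132), over a copy of an rRNA gene, with −log10 q of 49.1 and 56.8 in the NSC libraries, and 36.4 and 55.4 in the ESC libraries. It was followed by LOC107985185 at the very start of the chromosome 18 sequence (9942 to 10512, 26.2 and 45.6 in NSC1 and NSC2, 37.2 and 57.3 in ESC1 and ESC2). LOC105373480 on chromosome 2 (739910 to 740950) had the highest −log10 q of these regions within each NSC list, 101 in NSC1 and 80.7 in NSC2, and 15.7 in ESC1 and 31.2 in ESC2. Its ranks were percentiles 99.9 and 99.8 in the NSC lists, against 91.3 and 97.2 in the ESC lists. Its printed promoter holds 19 CpG dinucleotides.

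Of these 39 regions, 5 overlapped pseudogenes of the FAM86 family, which derive from a gene for a protein methyltransferase. They were FAM86EP at LOC105374358 (46.9 and 50.9 in NSC1 and NSC2, 10.5 and 23.9 in ESC1 and ESC2), FAM86HP at LINC02021 (58.4 and 53.3, 9.03 and 31.5), FAM86JP at LOC102723696 (75.004 and 51.8, 4.48 and 50.6), FAM86DP at LINC02018 (63.7 and 73.4, 2.87 and 25.4) and FAM86B3P at FAM85B (32.5 and 35.1, 2.72 and 9.82). A further copy, FAM86KP at LOC105369250, had peaks in NSC1 and NSC2 (40.5 and 31.1) and in ESC2 (7.54), but not in ESC1. No NSC-only or ESC-only region overlapped a FAM86 copy. The copies resemble each other, and they are not independent sites. A read may fit several of them, although the names of the alignments mark unique reads. The part of the resemblance between copies in the result was not tested.

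Among the same 39 regions were MALAT1 and its neighbour LINC02736, HCG11, HCG14, LINC02453, EPCAM-DT and MIR7-3HG. MALAT1, an abundant nuclear lncRNA of splicing speckles, had a region at its 5′ end (chromosome 11, 65497246 to 65497900) with −log10 q of 22.6 and 26.1 in the NSC libraries, and 5.70 and 4.35 in the ESC libraries. EPCAM-DT, the divergent transcript of the epithelial adhesion gene EPCAM, had 13.5 and 11.7 in the NSC libraries, and 3.93 and 18.1 in the ESC libraries at its 5′ end. LINC02453 (chromosome 12, 98503095 to 98504355) carried an aspartate and a tryptophan tRNA gene and had 29.5 and 22.9 in the NSC libraries, and 12.2 and 28.8 in the ESC libraries. At HCG14, over the tRNA gene printed above, the values were 23.2 and 25.3 in the NSC libraries, and 10.3 and 52.5 in the ESC libraries.

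In regions with both NSC libraries and ESC2 but not ESC1, the highest ranks were at DLEU1, a transcript of a region often deleted in lymphocytic leukaemia (chromosome 13, 50081829 to 50083106, 12.5 in NSC1, 25.5 in NSC2 and 19.7 in ESC2). It was followed by LINC03015 with its neighbour LINC03014 (23.5 and 17.5, 12.2), by the FAM86KP region, by LINC01635 with LINC00339 (18.3 and 13.0, 12.7) and by LOC100630923 (17.1 and 15.8, 8.95).

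By gene, 11664 of 17795 lncRNA genes had an end within reach of the rule, and 1145 of these had a peak there in at least 1 library (9.82%). NSC1 had a peak at 769 genes and NSC2 at 657, against 105 for ESC1 and 344 for ESC2. Of these genes, 382 were NSC-only (3.28%), 24 were ESC-only (0.206%) and 43 had a peak in each library (0.369%). Host genes of microRNAs and small nucleolar RNAs had a peak at 16 of 75 (21.3%) and genes with LINC names at 285 of 2149 (13.3%). Uncharacterised genes with LOC names had one at 715 of 8178 (8.74%), and divergent transcripts at 7 of 292 (2.40%). Antisense or overlapping transcripts had one at 43 of 514 (8.37%) and genes with other names at 79 of 456 (17.3%). The rule leaves out ends close to coding genes, so only 292 of 580 divergent transcripts were within reach. Which of their ends this left was not counted.

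Of the genes listed for neural tissue and development, 25 were within reach, 8 had a peak (32.0%) and 4 were NSC-only. Among all 11664 lncRNA genes within reach, 9.82% had a peak and 3.28% were NSC-only. NSC1 and NSC2 each had a peak at 6 of the 25 listed genes, against 0 in ESC1 and 2 in ESC2. SOX2-OT, whose gene spans the neural and pluripotency factor SOX2, had 3 and 2 peaks in NSC1 and NSC2 and none in ESC. Its 5′ end (chromosome 3, 181056226 to 181056855) had −log10 q of 5.25 and 3.98 in NSC1 and NSC2, and its 3′ end (181741503 to 181741926) 9.26 and 5.40. LINC-PINT, a transcript induced by p53, had 13.1 and 16.9, the microRNA host DLEU2 had 7.51 and 8.99 at its 5′ end, and the microRNA host MIR99AHG had 4.62 and 4.79. RMST, a neuronal partner of SOX2, had a weak peak in NSC1 alone (1.36), MEG9 one in NSC2 alone (3.91), and MIAT, first found near a locus for myocardial infarction, one in ESC2 alone (8.63). LINC00472 had a region in both NSC libraries (7.35 and 3.15) and ESC2 (1.62).

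Of the genes listed for pluripotent cells, 8 were within reach and 1 had a peak (12.5%), beside 9.82% of all lncRNA genes within reach. The gene with a peak was LNCPRESS2, a lncRNA of pluripotent cells, with peaks in ESC2 alone (3.93 and 4.08 in 2 regions). The other 7 within reach had none in any library.

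Of 79 broadly expressed lncRNAs and small RNA hosts within reach, 19 had a peak (24.1%), 7 were NSC-only and 2 were in all 4 libraries. Among all lncRNA genes within reach, 9.82% had a peak, 3.28% were NSC-only and 0.369% were in all 4 libraries. NSC1 and NSC2 had a peak at 16 and 14 of the 79, against 2 and 8 in the ESC libraries. Those that were NSC-only included MIR17HG, host of a microRNA cluster that promotes proliferation (7.08 and 8.63 in NSC1 and NSC2), SNHG5, a small nucleolar RNA host (11.9 and 7.60), CYTOR (5.81 and 8.58), MIR3681HG (9.26 and 11.3), MIR4435-2HG (8.07 and 5.46) and MIR1915HG (2.30 and 2.32). MIRLET7A1HG, host of let-7 microRNAs that act against pluripotency, had a region with 25.3 and 17.1 in NSC1 and NSC2 and 3.24 in ESC2. NEAT1, the scaffold of nuclear paraspeckles, had a weak peak in NSC1 alone (1.61). Beside MALAT1, the gene of this list with a peak in each library was MIR7-3HG, host of a miR-7 gene (9.36 and 6.79 in the NSC libraries, 3.20 and 2.40 in the ESC libraries). The merged region at the 5′ end of MIR130AHG held peaks of 11.6 and 5.11 in the NSC libraries and of 3.98 and 11.1 in the ESC libraries, and the gene itself was not counted in ESC1. MIR99AHG was on both lists.

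A larger share of 5′ ends than of 3′ ends of lncRNA genes had a peak in each of the 4 libraries, although the rule treated both alike. Strand was known for the genes in the RefSeq promoter table, which gave 5864 5′ ends and 6618 3′ ends within reach. In NSC1 7.16% of the 5′ ends had a peak (95% Wilson interval 6.53 to 7.85) against 2.36% of the 3′ ends (2.02 to 2.75), and in NSC2 6.05% (5.47 to 6.69) against 2.15% (1.82 to 2.52). In ESC1 it was 0.887% (0.677 to 1.16) against 0.348% (0.232 to 0.521), and in ESC2 3.12% (2.71 to 3.597) against 0.922% (0.718 to 1.18). By region, 591 of 844 with known strand lay at 5′ ends alone (70.0%) and 215 at 3′ ends alone (25.5%). The 5′ share was 68.0% among NSC-only regions, 66.7% among the 21 ESC-only regions with known strand and 79.2% among the 24 in all 4 libraries.

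Summit positions are given as a description. Of summits within 2000 bp of a lncRNA transcript start, 220 of 445 in NSC1 (49.4%) and 187 of 381 in NSC2 (49.1%) lay within 250 bp of it, against 22 of 55 in ESC1 (40.0%) and 93 of 189 in ESC2 (49.2%). The median position was −12 bp in NSC1 and −9 bp in NSC2, against −18 bp in ESC1 and −30 bp in ESC2, where minus is upstream. The rule takes peaks on either side of a gene end alike, so both a median near the start and a decline beyond 1 kb are part of the choice.

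**Figure D5:**
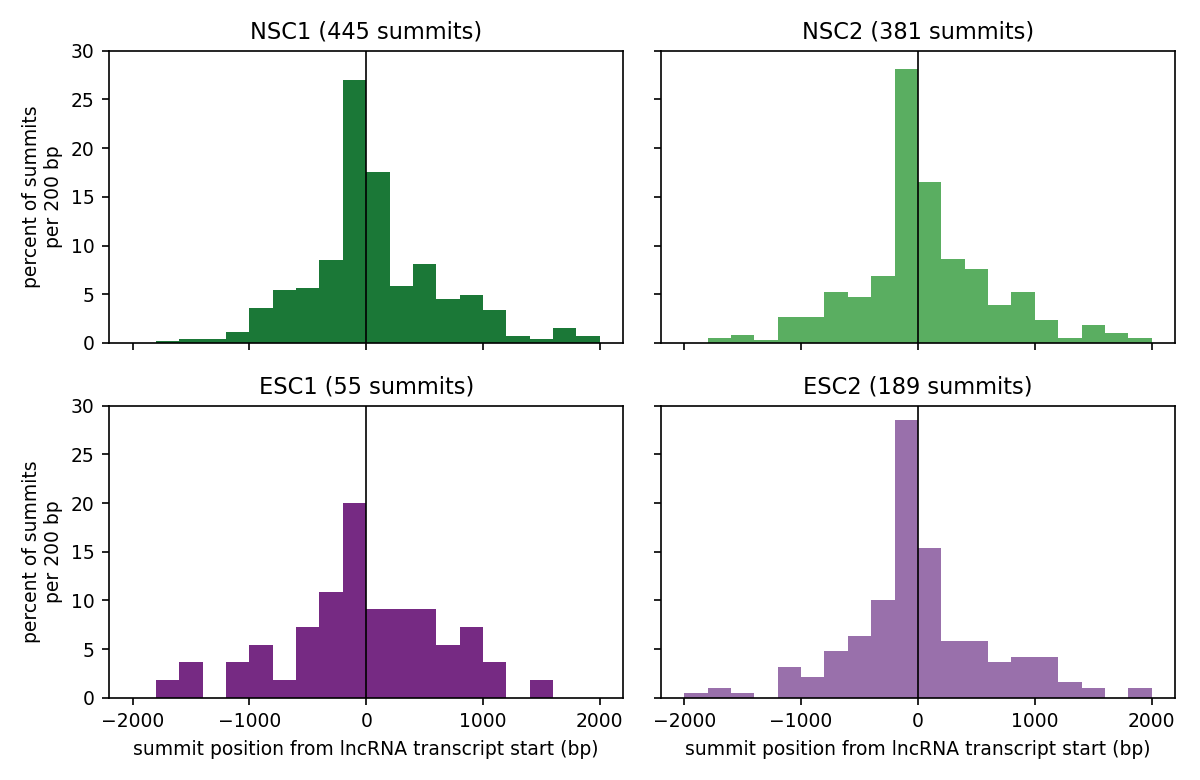
Position of peak summits relative to the nearest lncRNA transcript start, in bp along the strand of the lncRNA, as percent of the summits shown per 200 bp and for each library. In NSC1, NSC2 and ESC2, 49.1% to 49.4% of summits lay within 250 bp of the start, and in ESC1, with 55 summits, 40.0%.

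The regions lay at all distances from coding genes beyond the limit of 5 kb. The median distance was 68910.5 bp for NSC-only, 41545 bp for ESC-only and 29632 bp for regions in all 4 libraries. More than 100 kb away were 163 of 384 NSC-only regions (42.4%) and 10 of 26 ESC-only regions (38.5%). The same held for 5 of 39 in all 4 libraries (12.8%) and 417 of all 1201 (34.7%). The medians had the same order elsewhere away from coding genes, with 117542 bp for NSC-only, 93098.5 bp for ESC-only and 57743 bp for regions in all 4 libraries. A merged region can reach closer than its member peaks, and the closest lay at 4849 bp. By chromosome, regions per 100 lncRNA genes ran from 3.68 on chromosome 16 to 9.79 on chromosome 13.

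Base composition of the promoters is given by class as a description, with no test. Median GC was 48.8% in 136 NSC-only promoters (quartiles 43.5% and 64.4%), 62.3% in 17 promoters of regions in all 4 libraries (59.0% and 66.3%) and 55.0% in 5 ESC-only promoters. The quartile ranges of the NSC-only promoters and of those in all 4 libraries overlapped. In 224 promoters of regions with any other pattern of libraries median GC was 59.3% (49.0% and 65.1%). In 7707 promoters without such a peak, of lncRNA genes with either end within reach, it was 47.7% (40.3% and 58.0%). Over all 35116 promoters it was 58.7%. The 7707 are called promoters without a peak here and below. Only 5864 5′ ends were themselves within reach, so some of the 7707 lie near coding genes, where a peak was not counted. CpG dinucleotides per 100 bases had a median of 2.00 in NSC-only promoters and 6.67 in those of all 4 libraries. The median was 3.00 in ESC-only promoters, 5.00 in those of any other pattern and 1.33 in promoters without a peak.

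Motif counts are likewise a description. The GC box GGGCGG was in 42 of 136 NSC-only promoters (30.9%) and in 11 of 17 of all 4 libraries (64.7%), against 20.3% of promoters without a peak and 45.0% of all promoters. The AP-1 site TGACTCA was in 21 of the 136 NSC-only promoters (15.4%) and in 0 of the 17, against 6.45% of promoters without a peak and 4.95% of all promoters. It was also in 1 of 5 ESC-only promoters and in 24 of 224 promoters of any other pattern of libraries (10.7%). The E-box CAGCTG was in 37 of 136 NSC-only promoters (27.2%), against 17.6% without a peak and 17.9% of all. It was in 3 of the 5 ESC-only promoters, 2 of the 17 (11.8%) and 41 of the 224 (18.3%). The GC box was in 0 of the 5 and 96 of the 224 (42.9%). The TATA box TATAAA was in 16.9% of NSC-only promoters and 17.1% of those without a peak, the CCAAT box in 34.6% and 35.7%, and the SOX site ACAAAG in 19.1% and 21.5%. A match is a run of letters within 300 bases on either strand, and occupancy by the factors that can bind it was not measured. In LINC01392 the letters TGACTCA begin at positions 245 and 277 of the printed promoter, counted from 1 at its 5′ end. The first of them ends on the transcript start, and in LOC400940 the letters begin at position 123. LOC400940 lies 280 kb from SOX11, a SOX transcription factor gene of neural progenitors, and its region had −log10 q of 15.9 and 12.8 in NSC1 and NSC2. LINC01392 had 34.2 and 15.1 in NSC1 and NSC2, 211 kb from MDFIC.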

How the data were processed

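BAF45D occupancy was measured by CUT&Tag in 2 NSC and 2 ESC libraries. The submitters' processing notes name FastQC, Trimmomatic, BWA 0.7.12 and the build hg38. Per the file headers, peaks were called for each library alone with MACS2 2.1.0.20150420, without a control library, at q 0.05, from alignments whose names mark unique, deduplicated reads. The deposited lists give, per peak, the pileup (a signal value), the −log10 p and −log10 q values and the fold enrichment over the local background of the same library, a ratio.

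Entries that differ only in summit count as 1 peak, with its highest −log10 q. Gene positions and biotypes came from a RefSeq table of GRCh38.p14 (19122 protein-coding and 17795 lncRNA genes on chromosomes 1 to 22), and strand and promoters from a RefSeq promoter table, which held 12569 of those lncRNA genes and was used for none on chromosome 8. A lncRNA gene was within reach when the window at either end held a base more than 5 kb from coding genes. Regions were merged at 1 bp of overlap. The peak lists hold no read counts, so a missing peak is a signal below the threshold. Wilson intervals (95%) allow for counting error alone. No set test was run, and p-values come from exact permutation over 2 against 2 libraries (Python 3.11.15, SciPy 1.17.1). The merging and classing were tested on simulated data.

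Regions were named by mean within-list percentile of −log10 q, the top 8 of each class and the top 5 with both NSC and 1 ESC library, together with the 5 genes with most NSC peaks and members of 3 lists. SOX2-OT and the genes tied with it at 5 peaks were all named. Promoters were printed for the strongest regions of each class that overlap at least 150 of their 300 bases. The members, lists and tests were chosen with earlier results of these data known, and the printed TGACTCA promoters and the tRNA shares by library were chosen after their values were seen.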

Additional observations from a re-analysis of the deposited data

Results flagged for a closer look

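Chromosome X was outside the comparisons, and peaks there met the same rule. They numbered 23 in NSC1 and 17 in NSC2, against 4 in ESC1 and 10 in ESC2, each above the 3 counts that a count of 0 allows. Genes of X inactivation were left out of this count.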

How the results depend on the processing

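The ratio of NSC to ESC peak numbers ran from 1.01 at equal list length to 7.09 without ESC2. At equal list length the means were 113 and 111.5, so hardly any difference in number was left there. The share of peaks at lncRNA ends turned from 0.0889 percentage points higher in NSC to -0.135 at −log10 q of at least 5 and to -0.0176 without LOC genes, and ran from -0.0471 to 0.225 when 1 library was left out. The cause was not tested. NSC-only regions numbered 617 with windows of 2.5 kb (31.3% of lncRNA end regions, beside 30.7% of all regions). At −log10 q of at least 5 they numbered 220 (36.7% beside 34.8%). They numbered 56 at equal list length (20.5% beside 16.9%) and 134 without LOC genes (28.5% beside 30.7%). With 1 library left out they numbered from 385 (32.9% beside 31.9%) to 655 (63.7% beside 63.9%). Classes then asked for a peak only in the libraries that remained. ESC-only regions numbered 40 (2.03% beside 1.66%), 11 (1.83% beside 1.404%), 31 (11.4% beside 8.57%) and 11 (2.34% beside 1.66%) under the same 4 settings. Leaving out 1 library gave 29 to 208 ESC-only regions. There were 208 without ESC1 (17.8% beside 16.9%) and 54 without ESC2 (5.30% beside 6.23%). Regions in all libraries numbered 19 at −log10 q of at least 5 (3.17% beside 3.66%) and 18 at equal list length (6.59% beside 8.003%). They numbered 22 without LOC genes (4.68% beside 3.3%). With 1 library left out they numbered from 40 (3.93% beside 3.89%) to 102 (8.71% beside 9.63%). The NSC pair shared 75.2% at −log10 q of at least 5. The ESC pair shared 85.4% there, 53.9% at equal list length and 77.8% without LOC genes. The lower share of tRNA peaks in NSC kept its direction under each setting tried, from -5.37 to -15.9 percentage points. Same-numbered libraries share only a number, and their deviations over all regions correlated at 0.0568. With the replicate block the mean ratio of peak numbers was 4.81 (7.65 and 1.96 in the 2 pairs, exact sign-flip p = 0.5, the smallest possible) and the difference in share 0.0889 (exact p = 1). The number of tags differed between libraries, and its part in which sites passed the threshold was not tested.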
